A study of Mus musculus with 48 samples.

Results

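The 9 Toll-like receptor genes Tlr1, Tlr2, Tlr3, Tlr4, Tlr6, Tlr7, Tlr8, Tlr9 and Tlr13 and the adaptor gene Myd88 were chosen by name, 10 genes of the 24973 in the table, and all 10 were found. Their RNA was measured in the cells of the neurovascular unit, sorted from male wild-type C57BL/6 mice aged 12 to 15 weeks. The right middle cerebral artery was closed for 1 h and the brain was taken after 23 h of reperfusion. Each of 4 cell types was taken from the ipsilateral (stroke) and the contralateral hemisphere in 6 replicates, which gave 48 libraries in 8 groups. The study design makes each replicate a pool of 3 to 4 mice that gives both hemispheres. The control is therefore the uninjured side of a brain with a stroke and not a sham brain, and mice with a low neurological score had been left out. Microglia (MG) were sorted as CD45low CD11b+ cells, a gate that other myeloid cells with little CD45 can share. Endothelial cells (EC) were CD45- ACSA2- VECAD+, pericytes (PC) were CD45- ACSA2- VECAD- NG2+ PDGFRβ+, and astrocytes (AC) were CD45- ACSA2high without the vascular markers.

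Toll-like receptors are membrane proteins of innate immunity that bind conserved microbial molecules and also molecules set free by damaged tissue. Tlr1, Tlr2, Tlr4 and Tlr6 act at the cell surface, and Tlr3, Tlr7, Tlr8, Tlr9 and Tlr13 read nucleic acids in endosomes. All of them except Tlr3 signal through the adaptor Myd88 to NF-κB and cytokine genes, and in the brain microglia are known as the main cells that carry them.

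The sources name the cell type of 12 libraries in conflicting ways, since the sample titles of ipsilateral pericytes and microglia name the other of these cell types than the column names, which were followed here. In every one of the 48 libraries the 24 marker genes of the 4 cell types followed the column names: for all 24 markers, the lowest library of the cell type it marks was above the highest library of the other cell types. Column totals lay between 10549900 and 16942165 normalized counts, which is not the depth. In 12 libraries the gaps between low values showed the worth of 1 read, up to 2.37 normalized counts, which corresponds to between 4900000 and 12600000 reads on genes, and for the other libraries the depth is unknown. In the shallowest of them, replicate 3 of ipsilateral microglia, 3 reads amount to 7.09 normalized counts, so that values below this level are at the limit of detection.

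The summed level of 12 microglial markers in EC, PC and AC differed between replicates. As a percentage of the microglial mean of the same hemisphere it ran from 0.225% to 21.2%, with a median of 4.02%, over the 24 libraries of replicates 1 to 4. It ran from 0.105% to 0.538% over the 12 libraries of replicates 5 and 6, and none of the 12 markers was at 0 in all libraries of a group. Values of the members in these 3 cell types are therefore given for replicates 1 to 4 and for replicates 5 and 6. Replicate 2 of ipsilateral microglia stood apart from the other 5 by a low level of several members, and changes in microglia that its absence moves by over 1.5 times or across the threshold are given with and without it, an alternative added after the data were seen. In bulk RNA of sorted cells, fewer cells of a type and less RNA per cell cannot be told apart.

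RefSeq promoter windows (GRCm38.p6) matched 8 of the 10 members, in 10 windows since 2 of them had a pair of start sites. The stretches below belong to members whose level was highest in microglia, and show where a short motif that belongs to a transcription factor of myeloid cells or of inflammation occurs ahead of the gene. Capitals mark the motif, and only bases outside annotated exons of the gene are shown.
Tlr1, chr5:64933564-64933808, minus strand: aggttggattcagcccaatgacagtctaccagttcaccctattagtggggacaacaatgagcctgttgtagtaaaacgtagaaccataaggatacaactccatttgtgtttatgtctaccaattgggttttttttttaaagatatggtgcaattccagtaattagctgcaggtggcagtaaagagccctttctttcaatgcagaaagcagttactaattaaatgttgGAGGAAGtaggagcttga
Tlr9, chr9:106222348-106222597, plus strand: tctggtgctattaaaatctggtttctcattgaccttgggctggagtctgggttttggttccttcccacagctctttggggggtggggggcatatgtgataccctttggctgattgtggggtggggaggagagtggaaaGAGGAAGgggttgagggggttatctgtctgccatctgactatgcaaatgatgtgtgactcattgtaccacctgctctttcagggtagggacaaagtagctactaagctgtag
Tlr13, chrX:106143025-106143203, plus strand: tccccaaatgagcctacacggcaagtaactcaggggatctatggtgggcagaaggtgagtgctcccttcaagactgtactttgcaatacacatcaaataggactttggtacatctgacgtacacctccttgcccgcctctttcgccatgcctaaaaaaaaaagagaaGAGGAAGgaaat
Tlr2, chr3:83841768-83841858, minus strand: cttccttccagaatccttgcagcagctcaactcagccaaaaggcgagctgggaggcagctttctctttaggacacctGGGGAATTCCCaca
The capitals in Tlr1, Tlr9 and Tlr13 are GAGGAAG, the core bound by the myeloid factor PU.1, and those in Tlr2 are the NF-κB consensus on both strands in overlapping matches. Both strands were searched in the 250 bases before each start. GAGGAAG occurred in 10.6% and the NF-κB consensus in 3.90% of 32851 windows of the same length. The interferon response core, GAAA repeated after a spacer of 2 bases, was found ahead of a start site of Tlr6 and of Myd88 and occurred in 2.98% of the windows. The STAT element, TTC and GAA around a spacer of 3 bases, was found ahead of a start site of Tlr1, Tlr8 and Myd88 and occurred in 7.02%. In Myd88 these last 2 motifs overlap. The NF-κB consensus was also found ahead of a start site of Tlr3. The matches of Tlr6, Tlr3 and Myd88 and the STAT match of Tlr1 lie inside the annotated gene. The Tlr6 window outside the gene held no match. A match is a description of the letters and no binding was measured.

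The receptors were mostly genes of microglia, with 2 exceptions. The plot of levels by library shows the pattern for each of the 10 members. Of the 8 members whose mean reached 10 normalized counts also outside microglia, 7 were higher in contralateral microglia than in EC, 8 than in PC and 7 than in AC, by limma across 48 libraries with Benjamini-Hochberg adjustment. Of all 15003 genes tested, 22.2%, 24.7% and 19.3% were higher in microglia in these contrasts. The exceptions were Tlr3, which did not pass against EC or AC in this fit of 48 libraries, and Myd88, which passed in all 3 but with the difference from PC the smallest of its 3. Tlr8 and Tlr9 reached the filter on low values only through microglia, so that their calls in all 3 contrasts carry no weight. Tlr8 was listed at 0 in all contralateral libraries of EC, PC and AC, and in replicates 1 to 4 its adjusted p was between 0.134 and 0.149 by limma, and without replicate 2 between 0.143 and 0.167.

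**Figure D1:**
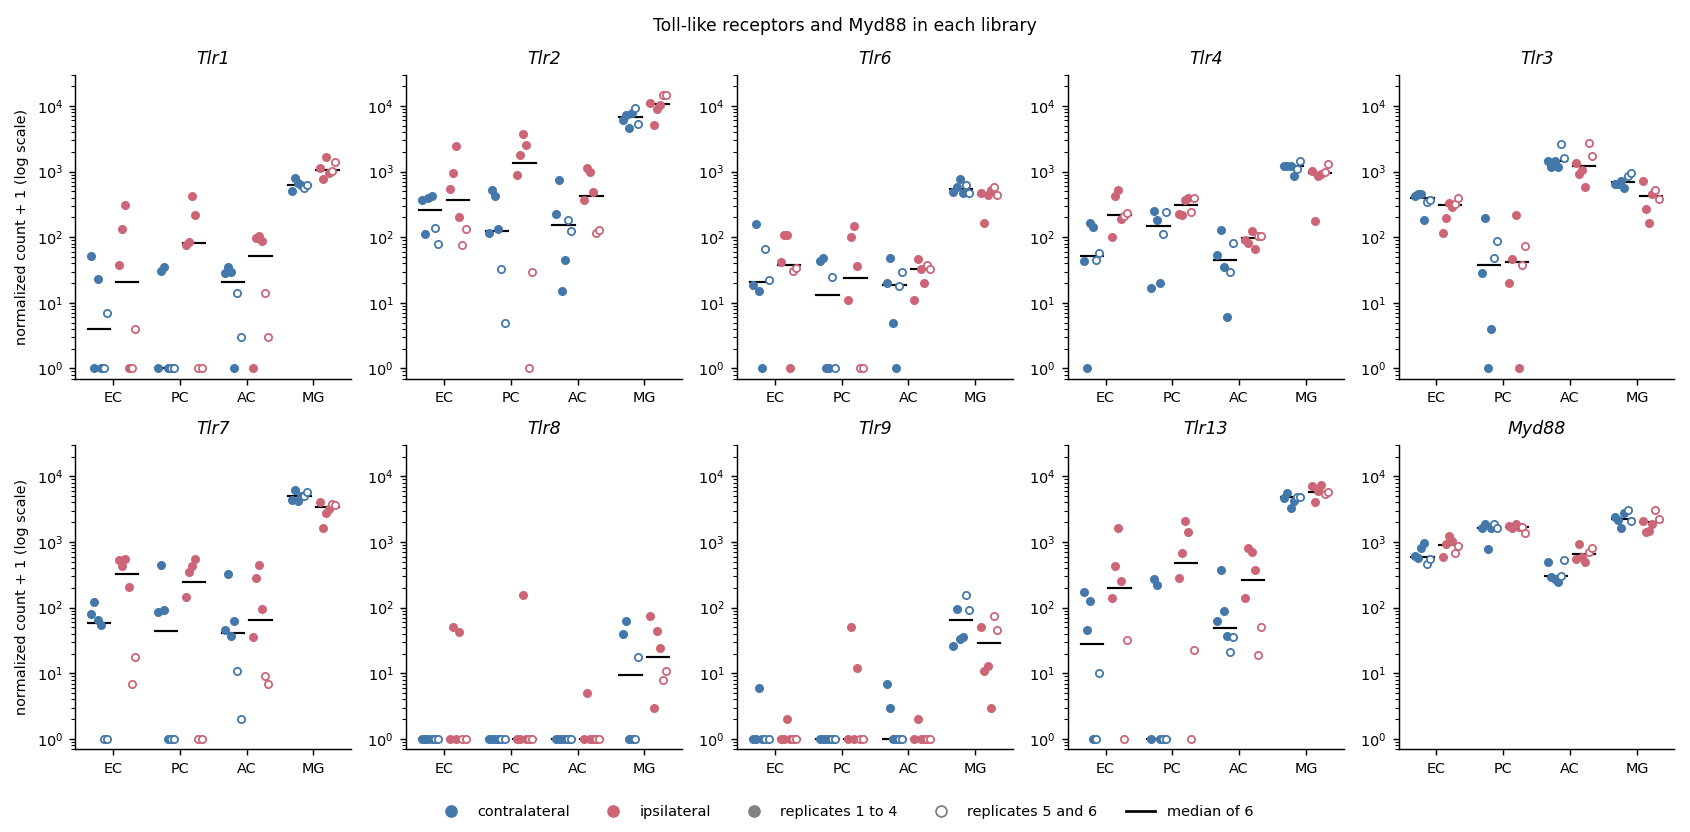
Normalized counts plus 1 (log axis) of the 10 members in each library, by cell type (EC, PC, AC, MG). Blue points are contralateral and red ipsilateral, filled points replicates 1 to 4 and open points replicates 5 and 6, and bars are medians of 6. Tlr7 and Tlr13 have open points near 0 outside microglia, where Tlr3 and Myd88 have none.

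Levels of different genes were compared per kilobase of exon, with exon lengths of the mouse GENCODE release M21. In contralateral microglia Tlr2 had the highest median level of the members, 2214 normalized counts per kb, and then came Tlr7 with 1245, Tlr13 with 1112 and Myd88 with 878. Tlr4 had 216, Tlr1 187, Tlr6 143 and Tlr3 132 normalized counts per kb. Tlr9 had 18.3 and Tlr8 2.37, the bottom of the order. In AC the order was another: Tlr3 had the highest median of the members, 278 normalized counts per kb against 116 for Myd88 in the contralateral group. In PC and EC Myd88 was first with 641 and 233 normalized counts per kb. The plot of medians per kilobase gives all 8 groups. Tlr1 and Tlr6 are neighbouring genes on chromosome 5 with a longest identical run of 229 bases, and 10.3% of the 75-base stretches of Tlr1 transcripts also occur in Tlr6. Reads from such stretches were not counted by the authors, so both genes are understated and their exact ratio is uncertain. Of the 75-base stretches of Myd88, 5.68% overlap the antisense partner Acaa1a, and of Tlr3 4.28% overlap Gm45542.

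**Figure D2:**
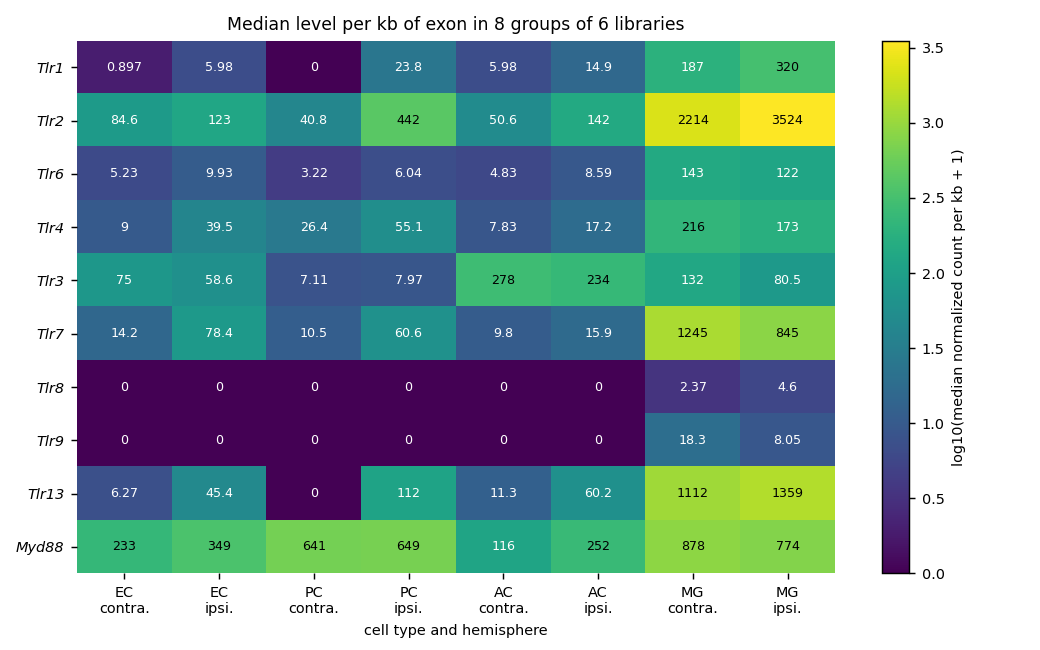
Median normalized count per kilobase of exon of the 10 members (rows) in the 8 groups of 6 libraries (columns), with the value printed in each cell and colour on a log10 scale. Tlr2, Tlr7 and Tlr13 are highest in microglia, between 845 and 3524, Tlr3 is highest in astrocytes, and Myd88 runs from 116 to 878.

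After stroke, 2 of the 10 members passed the test in microglia: Tlr1 rose and Tlr7 fell. The test was limma on log2(normalized count + 1) over 12 libraries, and a call needed an adjusted p of at most 0.05, a fold of at least 1.5 and a level above 10 in each of the 6 libraries of one hemisphere. Over all 13300 genes tested in microglia 10.6% were called, 4.29% up and 6.27% down, so 2 of 10 members is not far from the background. The median change of all genes was -0.18 on the log2 scale and that of the 10 members -0.34. Unadjusted p was under 0.05 for 4 members and 3725 genes.

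The surface receptor Tlr1 pairs with Tlr2 to bind triacylated lipopeptides. Tlr1 in microglia ran from 511 to 791 normalized counts with a median of 627 in the contralateral hemisphere, and from 767 to 1678 with a median of 1072 in the ipsilateral one. The ranges touch: the lowest ipsilateral library, replicate 2, lies within the contralateral range and the other 5 lie above it. Tlr1 thus had a log2 fold change of 0.85 (SE 0.20, 1.80-fold, adjusted p = 0.0148 by limma) and the ipsilateral library was higher in 5 of 6 pairs. Blocking on the replicate number gave an adjusted p of 0.0295, where 11.0% of all genes were called. Without replicate 1, 3 or 6 the value stayed between 0.75 and 0.79 and the adjusted p was between 0.0612 and 0.0655.

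Tlr2, the shared partner of Tlr1 and Tlr6, ran from 4606 to 9313 normalized counts with a median of 6674 in contralateral microglia. After stroke it ran from 5093 to 14594 with a median of 10620. The lowest ipsilateral library was again replicate 2, and 4 of the 6 ipsilateral libraries lay above the whole contralateral range. The log2 fold change of 0.64 (SE 0.25) did not pass (adjusted p = 0.118 by limma). Without ipsilateral replicate 2 it was 0.83 with an adjusted p of 0.0088, and without both libraries of replicate 2 it was 0.87 with an adjusted p of 0.0137. The call for Tlr2 thus depended on 1 library. Tlr6, the other partner of Tlr2, had a median of 532 before and 455 normalized counts after stroke, with overlapping ranges (log2 fold change -0.45, SE 0.28, adjusted p = 0.311 by limma). Without ipsilateral replicate 2, at 166 normalized counts, the change of Tlr6 was -0.19 (adjusted p = 0.471 by limma).

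Tlr4, the receptor for lipopolysaccharide, ran from 851 to 1465 normalized counts with a median of 1200 in contralateral microglia and from 178 to 1284 with a median of 963 in ipsilateral microglia. The value of 178 belongs to replicate 2, and the other 5 ipsilateral libraries lie between 842 and 1284, within or at the edge of the contralateral range. The log2 fold change was -0.62 (SE 0.38, adjusted p = 0.30 by limma), and without ipsilateral replicate 2 it was -0.20 (adjusted p = 0.391 by limma). The co-receptor of Tlr4, Cd14, rose from 36399 ± 13461 to 126510 ± 48043 normalized counts (SD, n = 6), a log2 fold change of 1.80 (SE 0.30, adjusted p = 0.00229 by limma), and was higher in 6 of 6 pairs. Ly96, which encodes MD-2, the protein that holds the ligand on Tlr4, changed by -0.17 (SE 0.35, adjusted p = 0.781 by limma).

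Among the endosomal receptors, Tlr7, which binds single-stranded RNA, fell. Tlr7 in contralateral microglia ran from 4276 to 6098 normalized counts with a median of 5082, and in ipsilateral microglia from 1646 to 4133 with a median of 3448. The ranges do not overlap, which was the case in 4.78% of all genes tested in this direction. Its log2 fold change was -0.72 (SE 0.21, adjusted p = 0.0392 by limma) and the ipsilateral library was lower in 6 of 6 pairs. Blocking on the replicate number gave 0.0607, so the call was lost, and leaving out replicate 3, 4, 5 or 6 gave adjusted p between 0.0665 and 0.113. Without ipsilateral replicate 2 the change was -0.53 with an adjusted p of 0.0147, under the fold of 1.5, so the direction and the p remained and the size shrank. The summed level of the 12 microglial markers lay between 519118 and 608998 normalized counts before and between 277288 and 445462 after stroke, lower in 6 of 6 pairs as well, and its part in the fall of Tlr7 was not tested.

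Tlr3, the receptor for double-stranded RNA, ran from 560 to 944 normalized counts with a median of 687 in contralateral microglia and from 166 to 728 with a median of 419 in ipsilateral ones. The groups overlap through ipsilateral replicate 1 at 728, and the other 5 ipsilateral libraries lie below the contralateral range. The log2 fold change of -0.93 (SE 0.30) missed the threshold (adjusted p = 0.0596 by limma), and without replicate 1 it was -1.15 with an adjusted p of 0.0456. Tlr9, the receptor for unmethylated CpG DNA, was low, with a median of 63.5 before and 28 normalized counts after stroke (log2 fold change -1.54, SE 0.77, adjusted p = 0.205 by limma). Tlr8, a further receptor for single-stranded RNA and the neighbour of Tlr7 on the X chromosome, stayed between 0 and 73 normalized counts in both hemispheres, and 3 of the 6 contralateral libraries were at 0.

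Tlr13, a mouse receptor for bacterial ribosomal RNA, did not pass. It ran from 3261 to 5662 normalized counts with a median of 4786 in contralateral microglia and from 4025 to 7475 with a median of 5849 in ipsilateral ones. It was higher in 5 of 6 pairs, with overlapping ranges (log2 fold change 0.35, SE 0.18, adjusted p = 0.215 by limma), and without ipsilateral replicate 2 the change was 0.46 with an adjusted p of 0.0438, under the fold of 1.5. Tlr12, an endosomal receptor outside the 10, fell in 6 of 6 pairs without overlap, from 431 ± 73.5 to 194 ± 80.5 normalized counts (SD, n = 6; log2 fold change -1.25, SE 0.30, adjusted p = 0.0161 by limma). Unc93b1, the membrane protein that carries the endosomal receptors from the endoplasmic reticulum, fell from 24097 ± 1095 to 14298 ± 4931 normalized counts (SD, n = 6; log2 fold change -0.86, SE 0.27, adjusted p = 0.0490 by limma, and 0.0509 with the block). Tlr5, the flagellin receptor, changed by -0.82 (SE 0.51, adjusted p = 0.304 by limma), or by -0.38 without ipsilateral replicate 2, and Tlr11 was too low to be tested.

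Myd88 in microglia ran from 1638 to 3035 normalized counts with a median of 2260 in the contralateral and from 1396 to 3025 with a median of 1994 in the ipsilateral hemisphere. The ranges cover each other almost whole, and the log2 fold change was -0.23 (SE 0.21, 95% interval -0.68 to 0.21, adjusted p = 0.487 by limma). Without ipsilateral replicate 2 it was -0.14 (adjusted p = 0.665 by limma).

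**Figure D3:**
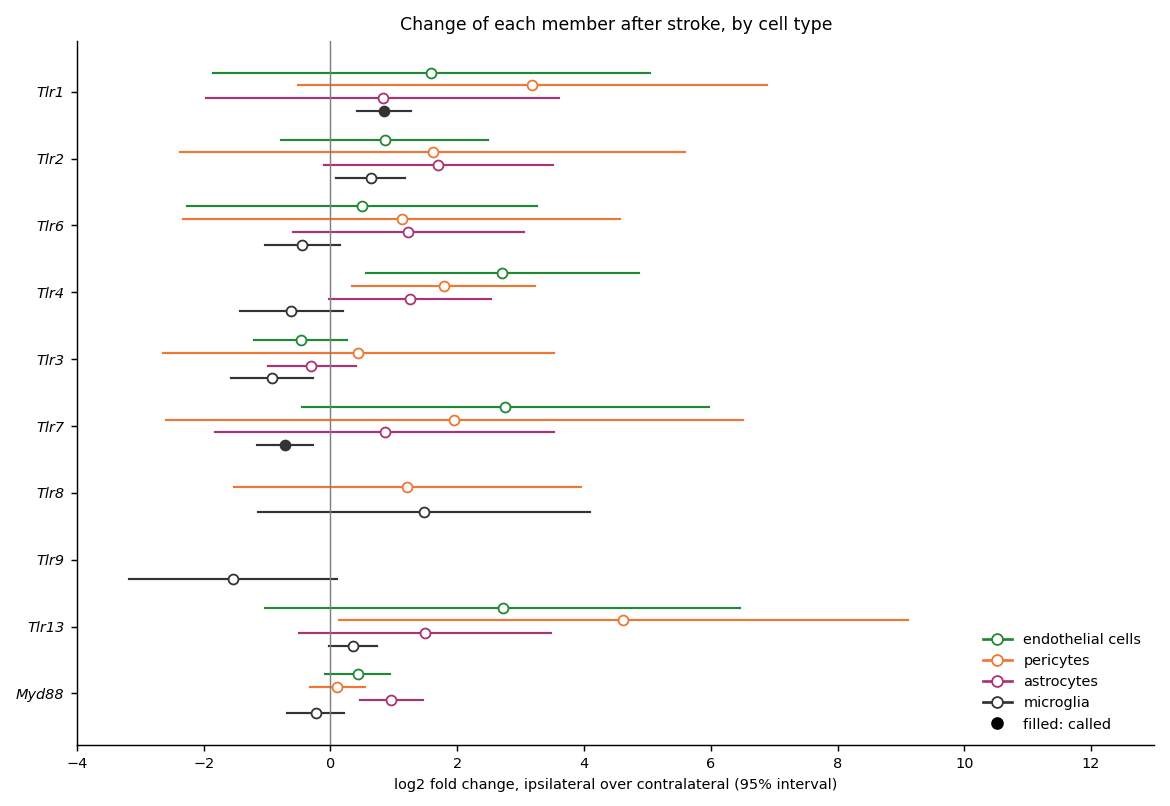
Log2 fold change of each member, ipsilateral over contralateral, with its 95% interval, for the 4 cell types, where filled points passed the test and members below a mean of 10 normalized counts are left out. The 2 filled points are Tlr1 at 0.85 and Tlr7 at -0.72 in microglia, and the intervals in the other cell types are wide except for Myd88 and for Tlr3 in EC and AC.

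In EC, PC and AC no member passed the main test, of 8, 9 and 8 members tested. The background was 0.491% of 13242 genes in EC, 1.02% of 13597 in PC and 0.341% of 15264 in AC, so that few genes of any kind passed. Unadjusted p was under 0.05 for 1, 2 and 1 members and for 1581, 2098 and 1416 genes. The median change of the members was 1.22, 1.61 and 1.09 on the log2 scale against -0.03, -0.04 and -0.06 for all genes. Microglial marker RNA moved in the same libraries: the summed 12 markers, which were not tested, went from a median of 12648 to 17550 normalized counts in EC (higher in 4 of 6 pairs), from 3168 to 28646 in PC (5 of 6 pairs) and stood at 5614 and 8468 in AC (2 of 6 pairs). The summed neutrophil markers were higher in 6 of 6 pairs in all 3 cell types, with medians of 368 and 2345 normalized counts in EC, 27 and 3016 in PC and 211 and 1174 in AC. This held in replicates 5 and 6 as well, where the sums lay between 6 and 30 before and between 94 and 270 after stroke in EC, between 1 and 47 and between 50 and 155 in PC, and between 36 and 98 and between 246 and 426 in AC. In EC, S100a8 and S100a9 of this list alone had ipsilateral means of 1572.5 and 1069.8 normalized counts, each higher in 6 of 6 pairs. The neutrophil sums therefore do not show the direction of the other neutrophil markers. Border macrophage markers were higher in 5, 2 and 6 of 6 pairs of EC, PC and AC, and monocyte markers in 2, 5 and 5. In contralateral EC the summed monocyte markers had a median of 27218, and Fn1 of this list alone had a mean of 26556 normalized counts. The sum in EC was thus mostly Fn1, which was higher in 2 of 6 pairs, and does not show the other monocyte markers. The part of these cells in the changes of the members was not tested.

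Tlr2 had medians of 255 and 371 normalized counts in contralateral and ipsilateral EC, 123 and 1332 in PC and 152 and 428 in AC. The 6 ranges overlap with their neighbours in the order, and the highest of all, 3769 in ipsilateral PC replicate 3, lies below the lowest contralateral microglial library at 4606. Tlr7 ran from 0 to 122 normalized counts in contralateral and from 6 to 557 in ipsilateral EC and was higher in 6 of 6 pairs (log2 fold change 2.76, SE 1.5, adjusted p = 0.498 by limma). Blocking on the replicate number gave Tlr7 in EC an SE of 0.54 and an adjusted p of 0.0645 by limma. Tlr13 ran from 0 to 268 normalized counts in contralateral and from 0 to 2070 in ipsilateral PC and was higher in 5 of 6 pairs (log2 fold change 4.62, SE 2.09, adjusted p = 0.309 by limma). Both had their high values in replicates 1 to 4: the highest value of Tlr7 in replicates 5 and 6 of EC was 17, and that of Tlr13 in PC was 22 normalized counts.

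Outside microglia, the highest values of Tlr1, Tlr2, Tlr7 and Tlr13 were lower in replicates 5 and 6, where the microglial markers were low. Over the 24 libraries of replicates 1 to 4 in EC, PC and AC, Tlr7 had a median of 3.69% of its microglial mean and a highest value of 17.4%. In the 12 libraries of replicates 5 and 6 its highest value was 0.530% and 6 libraries were at 0. Tlr13 had a median of 4.52% and a highest value of 34.9% in replicates 1 to 4 and a highest value of 0.827% in replicates 5 and 6. Tlr1 reached 36.8% in replicates 1 to 4 and 2.06% in replicates 5 and 6, and Tlr2 35.1% and 2.71%. In contralateral AC, however, Tlr2 was not lowest in replicates 5 and 6. It stood there at 226, 732, 14 and 44 normalized counts in replicates 1 to 4. In replicates 5 and 6 it stood at 182 and 123. The highest values of Tlr7 and Tlr13 in replicates 5 and 6 are close to that of the 12 markers, 0.538%, and those of Tlr1 and Tlr2 are above it, as the plot of members beside microglial markers shows. Tlr8 and Tlr9 were at 0 in all 12 libraries of replicates 5 and 6.

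In replicates 5 and 6 of EC, PC and AC, the lowest value of Tlr4 was 2.47%, that of Tlr3 6.44% and that of Myd88 13.1% of the microglial mean, all above the highest value of the 12 markers. Pooled over the 3 cell types, Tlr4 had a median of 11.9% of its microglial mean in replicates 1 to 4 and of 11.8% in replicates 5 and 6, where the markers had a median of 0.287%. Tlr6 had medians of 5.84% and 4.69% but was at 0 in replicates 5 and 6 of ipsilateral PC. Tlr3 had medians of 60% and 63.3%, and Myd88 of 37.5% and 37.7%. These pooled medians hide differences within a cell type: Tlr3 in contralateral AC ran from 158% to 200% in replicates 1 to 4 and from 223% to 365% in replicates 5 and 6, and Myd88 in contralateral EC from 24.8% to 40.7% and from 20% to 23.5%.

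**Figure D4:**
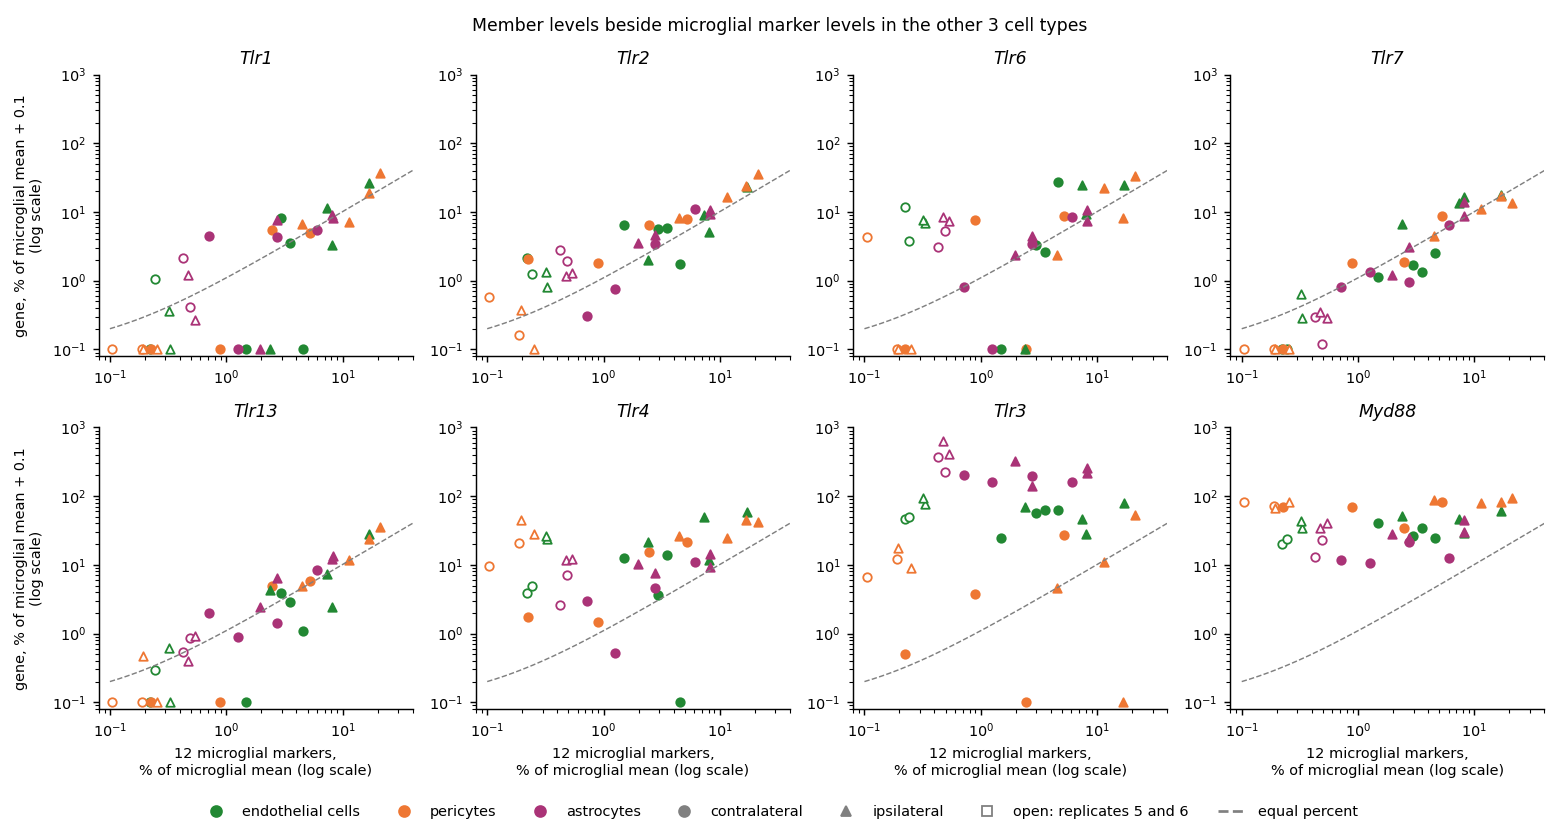
Level of 8 members plus 0.1 against the summed level of 12 microglial markers, both as percentages of their microglial mean of the same hemisphere on log axes, in each EC, PC and AC library, where the dashed line marks equal percentages and open symbols are replicates 5 and 6. Tlr7 and Tlr13 lie along the line, and Tlr4, Tlr3 and Myd88 lie mostly above it in the open symbols.

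Tlr4 was higher in the ipsilateral hemisphere in most pairs of EC, PC and AC. In EC it ran from 0 to 161 normalized counts with a median of 50 in the contralateral hemisphere and from 101 to 514 with a median of 220 in the ipsilateral one. It was higher in 6 of 6 pairs, and the ranges overlap only through contralateral replicates 3 and 4 at 161 and 144 and ipsilateral replicate 1 at 101. The log2 fold change was 2.71 (SE 1.01, 95% interval 0.56 to 4.87) and did not pass over all genes (adjusted p = 0.285 by limma). Replicate 2, with 0 before and 429 normalized counts after stroke, carried much of this value, and without it the change was 1.51 (SE 0.53, adjusted p = 0.213 by limma). In the fit of all 48 libraries the adjusted p was 0.0478 by limma, where 1.57% of all genes were called. That fit shares its estimate of the spread over all cell types, which gave an SE of 0.76 in place of 1.01. In replicates 5 and 6, with 44 and 56 normalized counts before and 210 and 229 after stroke, the log2 fold change was 2.12 with an adjusted p of 0.0268, where 3.61% of all genes were called.

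In PC Tlr4 ran from 16 to 249 normalized counts with a median of 146 in the contralateral and from 216 to 399 with a median of 306 in the ipsilateral hemisphere. It was higher in 5 of 6 pairs, and the ranges overlap (log2 fold change 1.79, SE 0.67, adjusted p = 0.221 by limma). In replicates 5 and 6 the values were 112 and 244 before and 244 and 399 after stroke. In AC Tlr4 stayed at or below 126 normalized counts in all 12 libraries, with medians of 43.5 before and 95.5 after stroke. There Tlr4 was also higher in 5 of 6 pairs (log2 fold change 1.26, SE 0.60, adjusted p = 0.552 by limma). The partner Ly96 changed by -0.45 in EC, 1.27 in PC and 0.45 in AC, with adjusted p of 0.785, 0.275 and 0.791 by limma.

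Tlr3 had its highest level in astrocytes. It ran from 1154 to 2663 normalized counts with a median of 1446 in contralateral and from 579 to 2696 with a median of 1218 in ipsilateral astrocytes. All 6 contralateral astrocyte libraries lie above all 6 contralateral microglial ones, whose highest is 944. In the fit of all 48 libraries the difference of microglia from astrocytes was -1.08 (SE 0.81, adjusted p = 0.281 by limma), and in a fit of the 12 libraries alone, added after the data were seen, the adjusted p was 0.000367, where 59.0% of all genes were called. In EC Tlr3 ran from 180 to 459 before and from 116 to 391 normalized counts after stroke. All contralateral EC libraries lie below all contralateral microglial ones, whose lowest is 560. The difference of microglia from EC was 1.02 (SE 0.81, adjusted p = 0.339 by limma) over 48 libraries. The fit of the 12 libraries alone, again added after the data were seen, gave an adjusted p of 0.00369 by limma. In PC Tlr3 was lowest, with medians of 37.0 and 41.5 normalized counts. After stroke Tlr3 changed by -0.30 (SE 0.32) in AC, -0.47 (SE 0.34) in EC and 0.44 (SE 1.44) in PC, with adjusted p of 0.837, 0.643 and 0.911 by limma.

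Myd88 was found in all 48 libraries. Its order by median in the contralateral hemisphere was microglia, PC, EC and AC, with 2260, 1650, 599 and 298 normalized counts. PC and microglia overlap, EC and AC overlap, and both pairs are apart except for PC replicate 3 at 787. Microglia exceeded PC by 0.59 on the log2 scale (SE 0.22, adjusted p = 0.0248 by limma), EC by 1.83 and AC by 2.74 (SE 0.22 in both).

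After stroke the largest difference of Myd88 was in AC. It ran from 248 to 527 normalized counts with a median of 298 in the contralateral hemisphere and from 502 to 917 with a median of 650 in the ipsilateral one. It was higher in 6 of 6 pairs, and the ranges overlap only at 502 to 527. The log2 fold change was 0.96 (SE 0.23, 1.95-fold) with an adjusted p of 0.148 by limma. Blocking on the replicate number gave 0.0403, where 1.59% of all genes were called, and in the fit of all 48 libraries 0.0184, where 0.593% were called. It was 0.98 (adjusted p = 0.285) in replicates 1 to 4 and 0.92 (adjusted p = 0.998 by limma) in replicates 5 and 6. The summed neutrophil and the summed border macrophage markers were also higher in 6 of 6 pairs of AC, and their part in the change of Myd88 was not tested. In EC the change was 0.43 (SE 0.24, adjusted p = 0.511 by limma), higher in 5 of 6 pairs, and in PC 0.11 (SE 0.20, 95% interval -0.32 to 0.54, adjusted p = 0.836 by limma).

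Whether the stroke change of a member differed between microglia and another cell type was tested as an interaction over 48 libraries. No member passed in any of the 3 contrasts, against EC, PC and AC, where 0.273%, 0.727% and 0.293% of all genes did. By limma, 2, 2 and 1 members had an unadjusted p under 0.05. The share of all genes at that level is not given, so these counts cannot be judged. The nearest to passing was Myd88 in microglia against AC, with a difference of -1.19 (SE 0.31, adjusted p = 0.0918 by limma). Without replicate 2 this difference was -0.98 (adjusted p = 0.346 by limma). Tlr4 against EC had a difference of -3.33 (SE 1.07, adjusted p = 0.207 by limma), and without replicate 2 one of -1.70 (adjusted p = 0.669 by limma). These comparisons share the microglial libraries.

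The other genes of the pathway were taken from fixed lists, of which 63 were in the table, and 17 of them passed in microglia, or 20 without ipsilateral replicate 2. Of all 13300 genes tested in microglia 10.6% were called in the main fit. The share in the fit without ipsilateral replicate 2 is not given, so the rise from 17 to 20 cannot be judged. Of 9 co-receptors and chaperones 2 rose and 1 fell: Cd14 and Unc93b1 are given above, and Cd36, a scavenger receptor that works with Tlr2 and Tlr6, rose by 3.32 (SE 0.41, adjusted p = 0.000241 by limma). Of 22 adaptors, kinases and interferon regulatory factors only Irf7 passed, up by 1.2 (SE 0.36, adjusted p = 0.0491 by limma). The bridging adaptor Tirap changed by -0.38, the Tlr3 adaptor Ticam1 by -0.20 and the kinase Irak4 by -0.24, with adjusted p of 0.353, 0.694 and 0.493 by limma. Without ipsilateral replicate 2, Tab1, Tab2 and Ikbke of this list also passed, chosen for naming after their values were seen. Of 10 negative regulators only the ubiquitin ligase Rnf216 passed, with a log2 fold change of -0.85 (SE 0.18, adjusted p = 0.00808 by limma), and the decoy kinase Irak3 changed by 0.37 (SE 0.45, adjusted p = 0.618), or by 0.80 (adjusted p = 0.0457 by limma) without ipsilateral replicate 2. The median change was 0.01, -0.26 and -0.20 in these 3 lists.

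Endogenous ligands and target genes held most of the calls in microglia. Of 8 ligands 5 rose, led by Vcan at 3.89 (SE 0.95), S100a8 at 3.35 (SE 0.76) and S100a9 at 3.26 (SE 0.60), with adjusted p of 0.0175, 0.0122 and 0.00356 by limma. Of 11 target genes 6 rose, led by Ccl5 at 2.55 (SE 0.52), the prostaglandin synthase Ptgs2 at 1.96 (SE 0.23) and Ccl2 at 1.84 (SE 0.34), with adjusted p of 0.0065, 0.000164 and 0.00395 by limma. The median change was 2.75 in the ligands and 1.00 in the targets, against -0.18 over all genes. S100a8 and S100a9 also stand on the list of neutrophil markers and Fn1 on that of monocyte markers. The summed 6 monocyte markers lay between 609 and 2091 normalized counts before and between 2920 and 6954 after stroke in microglia, higher in 6 of 6 pairs, and none of the 6 was at 0 in a whole group. The summed 7 neutrophil markers lay between 6423 and 8009 normalized counts in contralateral microglia. This sum was lower after stroke in 5 of 6 pairs, and replicate 2 was the exception with 18776 normalized counts. Since S100a8 and S100a9 of this list rose, the sum does not give the direction of each marker. The 6 markers of border macrophages were higher in 5 of 6 pairs, with sums from 310 to 1544 before and 586 to 4196 after stroke. Lymphocyte markers summed to at most 99 and neuronal markers to at most 134 normalized counts in microglia. The part of such cells in the changes of the ligands and of Tlr1 was not tested.

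**Figure D5:**
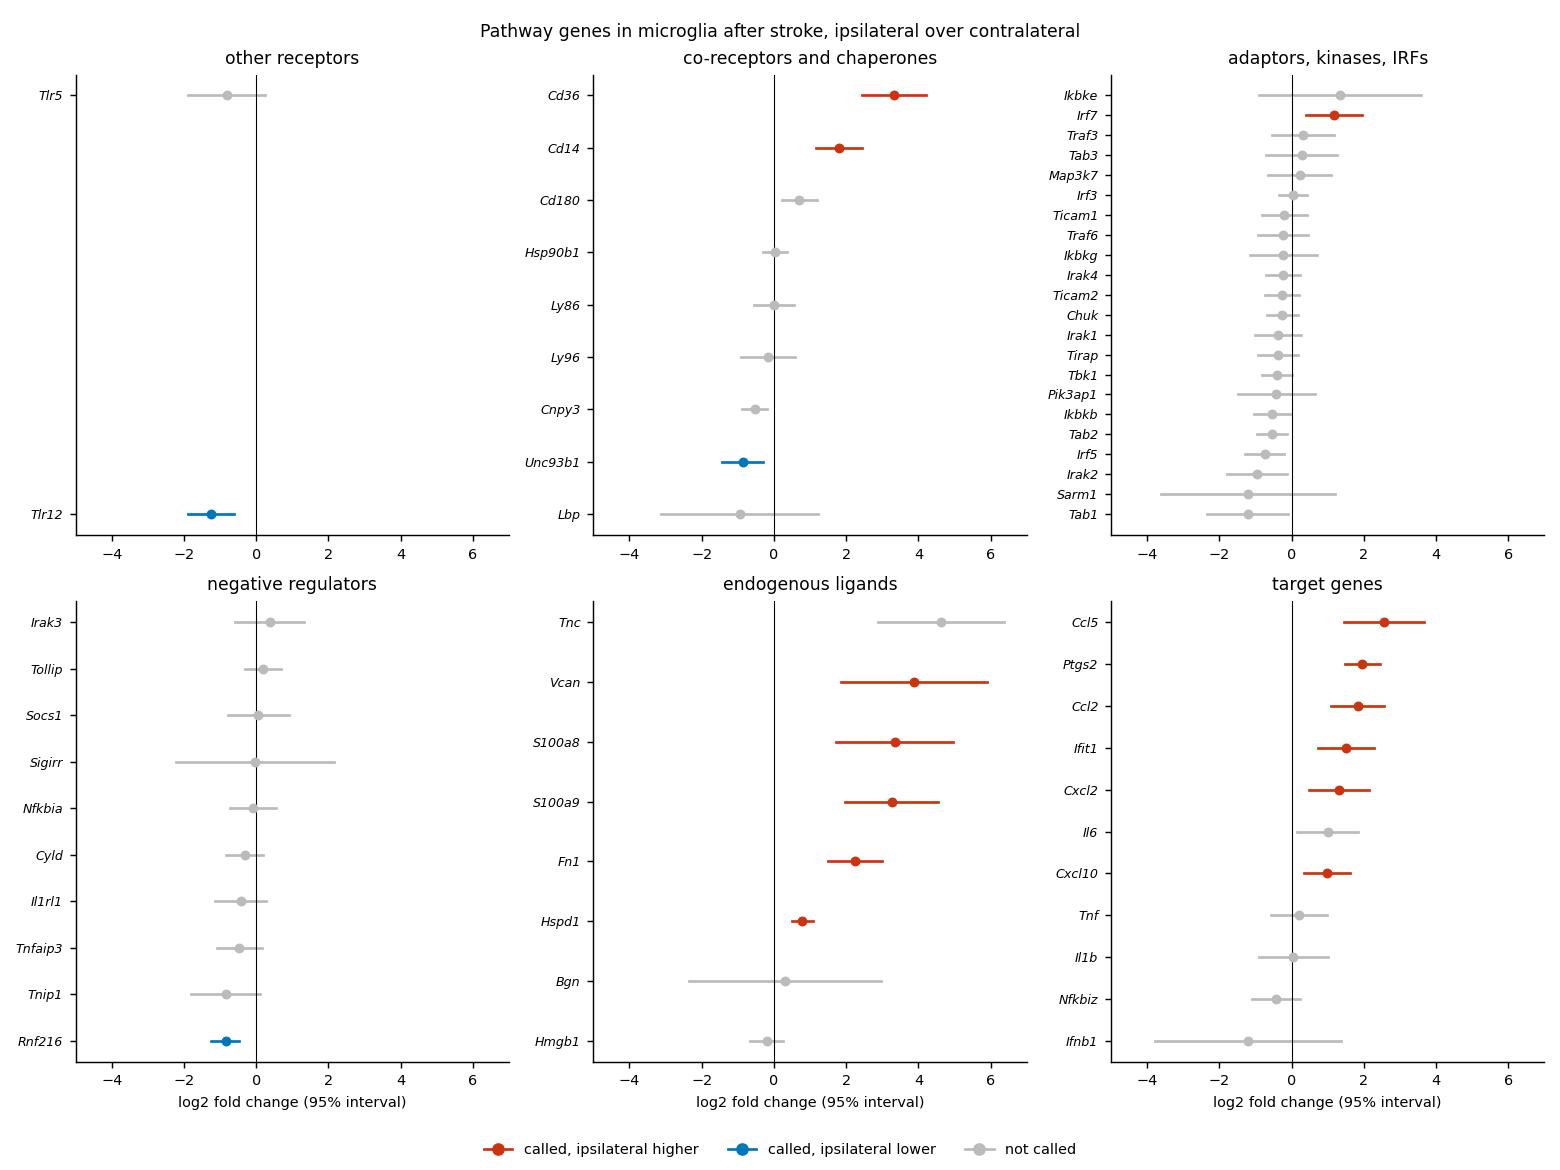
Log2 fold change in microglia, ipsilateral over contralateral, with its 95% interval, of the tested genes of 6 pathway lists, where red and blue mark genes that passed the test up and down and grey the others. Ligands and target genes hold 11 of the 14 red points, and adaptors and kinases lie around 0.

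In EC none of the 56 pathway genes tested passed by limma, and 10 had an unadjusted p under 0.05. In PC 3 did: the matrix glycoprotein tenascin C (Tnc) with 6.73 (SE 0.90, adjusted p = 0.00637), Il6 with 3.50 (SE 0.42, adjusted p = 0.00379) and Ccl5, listed at 0 in all 6 contralateral libraries, by limma. In AC Tnc passed with 3.56 (SE 0.58, adjusted p = 0.0178 by limma). Tnc, a ligand of Tlr4, was higher in 6 of 6 pairs in both cell types. In replicates 5 and 6 its change was 5.83 in PC and 3.76 in AC. Blocking on the replicate number, 8 genes passed in PC, where 1.66% of all genes were called, and 8 in AC, and Cd14 was among both with 4.27 (adjusted p = 0.0372 by limma) and 2.54 (adjusted p = 0.0338). Microglial markers moved in replicates 1 to 4 of these cell types, as given above. The change of Cd14 in replicates 5 and 6 was 2.4 in PC and 2.61 in AC, where the summed neutrophil markers were higher as well. The part of these markers in the change of Cd14 was not tested.

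The genes with the level pattern most like that of each member over 48 libraries were ranked by Pearson r of log2 values among 15003 genes. The libraries of 1 cell type share their origin, so r is a description. Tlr7 was closest to Cd37 (r = 0.977), Tbxas1 (0.976) and Spi1 (0.974), and Tlr13 to Osm (0.958), Adgre1 (0.956) and Itgam (0.953). Tlr2 was closest to Coro1a (0.934), Laptm5 (0.925) and Csf1r (0.921), and Tlr1 to Nckap1l (0.911), Arhgap30 (0.905) and Adgre1 (0.902). Tlr3 had other neighbours, Angel1 (0.917), Thrsp (0.892) and Tmem144 (0.847). Myd88 was closest to Nfkbiz (0.886), Cdk6 (0.878) and Socs3 (0.877). The values of Tlr4 (Pgd, 0.847), Tlr6 (Tnfaip8l2, 0.849) and Tlr9 (AC117245.5, 0.914) were of the same size, and that of Tlr8 was lower (Pgd, 0.643).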

How the data were processed

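The values the authors deposited are normalized counts rounded to whole numbers, used here as a score with no fixed unit. Per the labels and the study's methods, reads were trimmed with Trimmomatic 0.38, aligned with STAR 2.6.1d to GRCm38, counted with featureCounts 1.6.3 without reads over several genes or places, and normalized with DESeq2 1.18.1. About 250 pg of RNA per sample was amplified without strand information.

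Here limma 3.58.1 in R 4.3.3 (trend, Benjamini-Hochberg over all genes, two-sided) was run on log2(normalized count + 1) for genes averaging 10 or more, per cell type over 12 libraries without a block. The added 1 shrinks the ratio of low values, but libraries at 0 can also enlarge a fold change of low genes. Tlr13 in PC had a fold of 24.6 from the fit, with group means of 81.5 and 747 normalized counts. Cell types and interactions were tested over 48 libraries, which share the same estimate of the spread. Tables and plots used Python with pandas. The scripts were tested on simulated data. The members, gene lists and tests were chosen with earlier results of these data known. Named are all members, and per list and cell type up to 3 regulated genes of largest change, with Tlr5, Tlr11, Tlr12, Cd14, Ly96, Tirap, Ticam1, Irak4 and Irak3 for their role. Unc93b1, Rnf216, Irf7 and Cd36 fall under this rule. The study pooled mice by replicate and took both hemispheres from each pool, so the numbers pair the samples. The correlation of the paired deviations averaged 0.23, 0.23, 0.38 and 0.14 in EC, PC, AC and MG. edgeR and DESeq2, named in the plan, could not be run on rounded normalized values. Marker lists held 12 microglial, 7 neutrophil, 6 monocyte, 6 border macrophage, 7 lymphocyte (6 in the table) and 6 neuronal genes and 4 for each of EC, PC and AC.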

Additional observations from a re-analysis of the deposited data

Results flagged for a closer look

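Within each group of 6 libraries, the gap between the most extreme library and its nearest neighbour was set against the range of the group by Dixon's ratio. Of 76 groups with any spread, 17 passed the 95% critical value. Chance gives about 1 in 20 for normally distributed values, a rate that does not hold for low counts with many zeros, and in 5 of the 17 groups the other 5 libraries were at 0, which passes by construction. In 15 of them a single library outside microglia was high, and in 13 of these 15 it was replicate 2 or 3, among the replicates with microglial marker RNA, whose part was not tested. Such libraries were Tlr2 at 2455 in ipsilateral EC replicate 3 (the others 76 to 960) and at 732 in contralateral AC replicate 2 (14 to 226). Tlr7 stood at 440 in contralateral PC replicate 2 (0 to 90) and at 329 in contralateral AC replicate 2 (1 to 62). Tlr13 stood at 1658 in ipsilateral EC replicate 3 (0 to 433) and at 380 in contralateral AC replicate 2 (20 to 87). Tlr3 stood at 219 in ipsilateral PC replicate 3 (0 to 72), and at 2663 in contralateral AC replicate 5 (1154 to 1625).

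Tlr8 stood at 153 in ipsilateral PC replicate 3 and at 4 in ipsilateral AC replicate 2, with 0 in the other 5 libraries of each. Tlr9 stood at 5 in contralateral EC replicate 3, at 1 in ipsilateral EC replicate 3 and at 1 in ipsilateral AC replicate 2, again with 0 elsewhere, at 49 in ipsilateral PC replicate 2 (0 to 11) and at 6 in contralateral AC replicate 1 (0 to 2). Of these, the values from 1 to 6 are at the limit of detection. The single low libraries were Tlr6 at 166 in ipsilateral microglia replicate 2 (438 to 590) and Myd88 at 787 in contralateral PC replicate 3 (1636 to 1891).

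Tlr7 moved in opposite ways in all 6 pairs of microglia (lower) and all 6 pairs of EC (higher). The interaction was -3.48 on the log2 scale with an adjusted p of 0.582 by limma, and 0.323 with the replicate block, so the difference did not pass.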

How the results depend on the processing

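Of 587 alternative values of single members, 549 kept their direction and their side of the threshold, 17 lost a call (5 of Tlr1, 12 of Tlr7), 8 gained one, and 13 turned their sign, none of which had been called. In microglia the count of called members was 2. It was 1 without a filter on low values, with the replicate block and after rescaling within the cell type, 0 in replicates 1 to 4 alone and when 48 libraries were fitted jointly, and 0 to 2 when a replicate was left out. Without ipsilateral microglia replicate 2, chosen after seeing the data, the count was 2, but of Tlr1 and Tlr2, and 20 pathway genes passed in place of 17. The share of all genes called in that fit is not given. In EC the count of 0 became 1 (Tlr4) in replicates 5 and 6 and in the joint fit, and in AC it became 1 (Myd88) with the replicate block and in the joint fit. Pathway calls rose with the block from 3 to 8 in PC and from 1 to 8 in AC, and fell to 0 in AC in replicates 1 to 4. The block changed no other call of a member.

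In replicates 5 and 6 alone, the change turned to -0.04 for Tlr2, 0.02 for Tlr3 and -0.24 for Tlr6 in EC, to -1.23 for Tlr2, -0.30 for Tlr3 and -0.23 for Myd88 in PC, to -0.29 for Tlr2 and 0.05 for Tlr3 in AC, and to 0.05 for Myd88 in microglia. With single replicates left out, the ranges that cross 0 were -1.03 to 0.94 for Tlr3, -0.09 to 2.28 for Tlr6 and -0.11 to 0.19 for Myd88 in PC, and -0.30 to 1.95 for Tlr1 in AC. Why these values moved was not tested. The count tests edgeR and DESeq2 were not run, since only rounded normalized values were used. The depth is unknown for most libraries, and low members of EC, PC and AC varied widely between replicates.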
